A study of Drosophila melanogaster with 10 samples.

Results

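The baseline transcriptome described here is that of control adult males of Drosophila melanogaster that carried the c564 driver and no hairpin transgene. It comprised 5 of the 10 samples of the series, chosen by their label as controls, and the samples with a Mef2 hairpin were not used. Each control library was made from the poly(A) RNA of 5 whole males pooled, aged 5 to 10 days after eclosion, of genotype w[1118] / Y ; c564 / +. The white allele w[1118] is a partial deletion of the eye colour gene, and c564 is a GAL4 driver line whose activity covers the fat body and further tissues. These flies therefore carried GAL4 with no target transgene named in the labels, and they stand for the driver line on 1 genetic background, not for wild type males. All 5 libraries came from the same genotype, sex and age range, so nothing was tested between groups, and the results below describe levels and their spread.

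A whole fly is a mixture of organs, and its RNA is the sum of what each organ adds. Flight and leg muscle, gut, fat body, the eyes and brain, and in males the testis, accessory glands and ejaculatory duct each express sets of genes that few other organs express, so the share of reads that such a set takes reflects both how much of the organ is present and how strongly it expresses the set. Fewer cells of a kind and less RNA per cell cannot be told apart in these data. The fat body serves as the liver and fat tissue of the insect, and it makes much of the protein of the hemolymph, including the antimicrobial peptides of the Toll and Imd pathways.

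Counts per library ran from 45231822 to 56472658. A level was expressed as counts per 1000000 of the library total (CPM), and where genes of different length are set against each other it was divided by the length of the union of the exons of the gene (CPM per kb). A count of 3, taken as the floor of detection, equalled 0.0531 to 0.0663 CPM, which covers counting error only. The table held 17559 gene identifiers, of which 14396 had at least 3 counts in every library and 12236 (69.7%) a mean of at least 1 CPM. A mean of at least 10 CPM was reached by 8665 genes, of at least 100 CPM by 1981 and of at least 1000 CPM by 87. The other extreme was 1356 genes with no count in any library. Values after ± are SDs over the 5 libraries. The spread of a gene is given as its biological coefficient of variation, the CV of its CPM after the part that counting error gives was taken off, and its median over the 8665 genes was 4.82%.

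The libraries were not equally distant from each other. Over the 8665 genes, the median size of the log2 ratio of CPM was 0.05 between replicates 1 and 2 and 0.06 between replicates 4 and 5. It was 0.07 between replicate 3 and each of replicates 1 and 2. Between replicates 1 to 3 on the one side and replicates 4 and 5 on the other it was 0.09 to 0.11. A first principal component of the log2 CPM held 73.8% of the variance, with scores of -0.10, -0.09, -0.07, 0.12 and 0.13 for replicates 1 to 5. The labels give no date, batch or order that separates these libraries, so their distance is reported with each result that it touches and its source was not tested. No library was a repeat of another, since the chi-square of the counts per degree of freedom was 7.02 or more in each of the 10 pairs.

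Reads were concentrated on few genes. By mean CPM, 547 genes held 50% of the counts, and the number was 510 to 574 in single libraries and 340 without genes whose exons overlap those of another gene. The 10 genes with the highest mean CPM held 15.2, 14.8, 14.0, 13.3 and 13.1% of the counts of replicates 1 to 5, with a mean of 14.1% ± 0.912, and the first 1000 genes held 60.4% of the mean. Without mitochondrial and ribosomal RNA genes in the total, the first 10 held 6.91%. Of the 15 genes with the highest mean CPM, 6 lie on the mitochondrial genome. The large ribosomal RNA of the mitochondrion, mt:lrRNA, was first with 62199.8, 61353, 51692, 45548 and 43568 CPM in replicates 1 to 5. It was followed by the cytochrome P450 gene Cyp4g1 (chromosome X, 467057 to 469335 of BDGP6) with 27107, 26028, 28313, 34196 and 35987 CPM, and by mt:CoI, a subunit of cytochrome c oxidase, with 22915, 22144, 21847, 18445 and 17430.2 CPM. The order of libraries was opposite in these genes, since replicates 4 and 5 were lowest for both mitochondrial genes and highest for Cyp4g1.

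The remaining nuclear genes with a symbol among these 15 had varied functions. RNA of whole flies does not show which organ each transcript came from. Ebp, a protein of the ejaculatory bulb, had 3985, 3746, 4095, 4125 and 4255 CPM. The glycolytic aldolase Ald1 had 3491 ± 372 CPM, the fatty acid desaturase Desat1 3489.8 ± 173 CPM and the calcium pump SERCA of the sarcoplasmic reticulum 3391 ± 876 CPM. The rhodopsin of the outer photoreceptors, ninaE, averaged 3098 ± 195 CPM and the translation elongation factor eEF2 2997 ± 81.4 CPM. FBgn0000556 with 5471 ± 213 CPM and FBgn0027571 with 3046 ± 319 CPM belonged to the 306 identifiers that the annotation used here does not pair with a symbol, and these 306 took 3.41 to 3.58% of the counts. SERCA was the most variable of the 15, at 4292, 4082, 3621, 2664 and 2297 CPM in replicates 1 to 5, a biological CV of 25.8%. eEF2 was the least variable, at 2.7%.

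**Figure D1:**
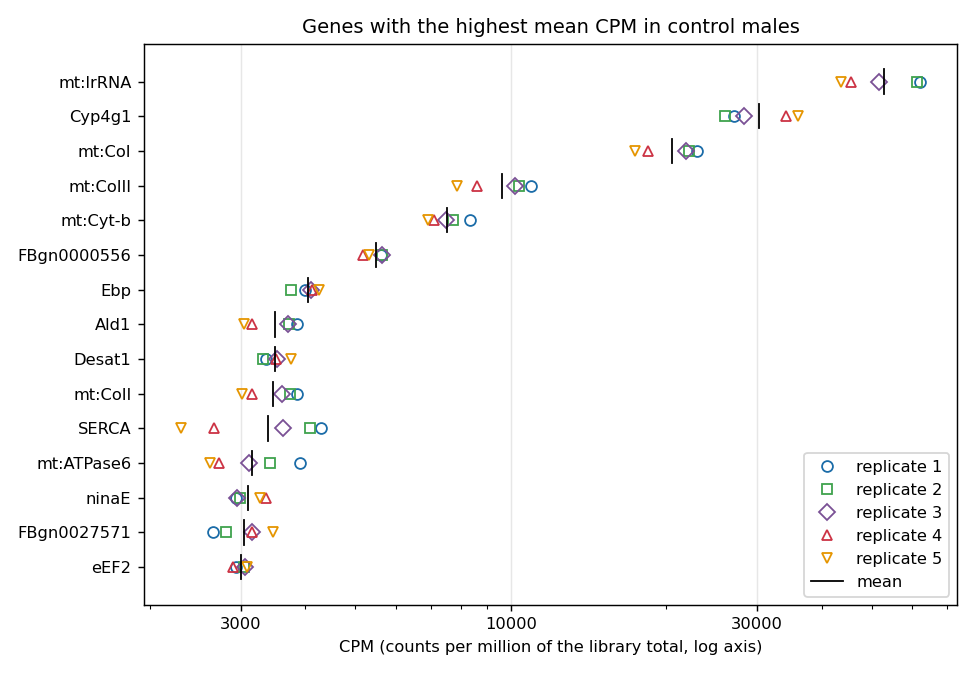
CPM on a log axis (horizontal) of the 15 genes with the highest mean CPM in the control males (vertical, highest at the top), with an open symbol for each of the 5 libraries and a bar for their mean. mt:lrRNA sits between 43568 and 62199.8 CPM, Cyp4g1 between 26028 and 35987 CPM, and the symbols of eEF2 nearly coincide.

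Per kb of exon, short transcripts of the male reproductive tract joined the mitochondrial genes. mt:lrRNA was again first with 39934 ± 6547 CPM per kb, followed by mt:CoI with 13383 ± 1594 CPM per kb and Cyp4g1 with 13307 ± 1961 CPM per kb. Of these last, mt:CoI was the higher in replicates 1 to 3 and Cyp4g1 in replicates 4 and 5. The 10 genes with the highest mean per kb were 6 mitochondrial genes with Cyp4g1, Mst57Db, CG18628 and Sfp87B. Mst57Db, a male-specific transcript of the accessory gland, had 4114 ± 571 CPM per kb, CG18628 had 4077 ± 203 CPM per kb and the seminal fluid protein gene Sfp87B had 3631 ± 97.9 CPM per kb. Of the neighbours Mst57Db and CG18628 in this order, Mst57Db was the higher in replicates 1 to 3 and CG18628 in replicates 4 and 5. Identifiers without an annotation have no exon length and are not part of this order.

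Genes of the mitochondrial genome took 11.8, 11.4, 10.3, 9 and 8.6% of the counts of replicates 1 to 5, a mean of 10.2% ± 1.43. Of its 37 genes in the table, 14 had a mean of at least 10 CPM, and 12 of these 14 had replicates 4 and 5 as their lowest pair, against 20.9% of the 8665 genes. mt:lrRNA alone made up 51.7% of the total of this group. The small ribosomal RNA, mt:srRNA, had only 265 ± 94.7 CPM per kb, against 39934 ± 6547 CPM per kb for mt:lrRNA. Since the libraries were made from poly(A) RNA, these values do not give the ratio of the ribosomal subunits. Among the protein genes, per kb, the cytochrome c oxidase subunits mt:CoI and mt:CoIII came first, at 13383 ± 1594 CPM per kb and 12161 ± 1645 CPM per kb. The NADH dehydrogenase subunits were lower, with mt:ND1 at 1695 ± 163 CPM per kb, mt:ND5 at 867 ± 133 CPM per kb and mt:ND2 at 88.6 ± 27.3 CPM per kb. mt:ND6 had 12.5 ± 1.66 CPM per kb and was the lowest of the protein genes.

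The nuclear genes of the respiratory chain and ATP synthase followed the same order of libraries. Their share was 2.23, 2.21, 1.93, 1.69 and 1.69% in replicates 1 to 5, and the mean of 1.95% was 0.886% without the 38 of 91 members whose exons overlap another gene. Of 85 members with at least 10 CPM, 63 had replicates 4 and 5 as the lowest pair and 4 had them as the highest, against 20.9% and 31.8% of the 8665 genes. The median biological CV of these members was 10.7%, against 4.82% over all genes. The catalytic subunit ATPsynbeta had 2561, 2532, 2047, 1815 and 1786 CPM and the membrane ring subunit ATPsynC had 1849, 1783, 1385, 1165 and 1110.3 CPM. Not every subunit varied in this way, as the complex I subunit ND-51 had 515, 539.8, 532, 546 and 561 CPM.

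Glycolytic enzymes held 1.22, 1.18, 1.09, 0.934 and 0.931% of the counts, a mean of 1.07%, which was 0.464% without 5 members whose exons overlap another gene. Replicates 4 and 5 were the lowest pair for 10 of the 14 enzymes, against 20.9% of the 8665 genes. Gapdh1, which oxidises glyceraldehyde 3-phosphate, spread most, at 1393, 1320.1, 1002, 602 and 586 CPM, while its paralog Gapdh2 had 759.9, 751, 706, 644 and 655 CPM. The biological CV was 39% for Gapdh1 and 7.56% for Gapdh2. The triosephosphate isomerase Tpi (2.56%) and the hexokinase Hex-C (2.29%) varied less than most genes. Ldh, the lactate dehydrogenase, was the enzyme with the fewest counts per kb, 31.9 ± 1.6 CPM per kb, and Ald1 had the most, 916 ± 97.6 CPM per kb.

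Among the lists with more than 1% of the counts, the share of muscle genes varied most. The 27 myofibril genes in the table took 2.14, 2.12, 1.85, 1.45 and 1.39% of the counts of replicates 1 to 5. Of the 25 with at least 10 CPM, 20 had replicates 4 and 5 as the lowest pair and none had them as the highest, against 20.9% and 31.8% of the 8665 genes. The median biological CV of these 25 was 20.3%. Mf, which encodes a thick filament protein of the myofibril (myofilin), had 3634, 3419.7, 2972, 1761 and 1684 CPM. The single muscle myosin heavy chain gene, Mhc, had 2652, 2746, 2391, 1814 and 1657 CPM, and the arginine kinase Argk1, which buffers ATP, had 2159, 2089, 1881, 1534 and 1431 CPM. Replicates 1 and 2 were the highest pair for Mf and Argk1, and replicate 3 lay between the pairs.

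The 5 myofibril genes with the largest spread were Act88F (50.7%), TpnC4 (40.8%), TpnC41C (35.2%), Act79B (34.96%) and Mf (34.1%). The flight muscle actin Act88F had 156, 135, 66.3, 46 and 69.3 CPM and was lowest in replicate 4. The flight muscle troponin C genes TpnC4 and TpnC41C had 197, 193, 132, 85.5 and 80.3 CPM and 157, 139, 108, 78.6 and 65.9 CPM, and Act79B, an actin of other muscles, had 822, 769, 558, 432 and 353 CPM. The genes of the giant sarcomere proteins followed this order only in part. sls, which encodes the titin-like protein sallimus, had 1135, 1288, 1363, 1123 and 1166 CPM. The twitchin-like projectin gene bt had 1083, 1212, 1252, 982 and 974 CPM. Replicate 3 was highest for both. Replicates 4 and 5 were the lowest pair for bt, while in sls replicate 1 lay below replicate 5. Per kb, Mlc2, a myosin light chain, was first of the list by mean with 542 ± 127 CPM per kb, then Argk1 with 519 ± 93 CPM per kb and Mf with 509 ± 174 CPM per kb. These means lay within their SDs of each other. Mf lay above Argk1 in replicates 1 to 3 and below it in replicates 4 and 5.

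Mef2, a MADS-box factor of muscle differentiation, had 94.1, 92, 102, 91.5 and 89.2 CPM in replicates 1 to 5, a mean of 93.8 ± 5.02 CPM and a biological CV of 5.15%. Its highest library was replicate 3. Replicates 4 and 5 were its lowest pair, as they were for 20.9% of the 8665 genes. Replicate 4, at 91.5 CPM, lay so close to replicate 2, at 92 CPM, that this pair was not clearly set apart.

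Digestive enzymes of the midgut showed the opposite order. Their 44 genes took 1.07, 1.08, 1.04, 1.42 and 1.42% of the counts, and 25 of the 34 members with at least 10 CPM had replicates 4 and 5 as the highest pair, against 31.8% of all 8665 genes. Their median biological CV was 20.5%. The maltase Mal-A1 had 1239, 1319.7, 1302, 1787 and 1863 CPM, and the serine protease genes Jon65Aiv and yip7 had 1305, 1235, 1254, 1669 and 1495 CPM and 1210.5, 1132, 1212, 1559.7 and 1486 CPM. Per kb, Jon65Aiv with 1539 ± 206 CPM per kb was the highest member, followed by yip7 with 1460.2 ± 209.9 CPM per kb and alphaTry, a trypsin, with 1422 ± 98.4 CPM per kb. The means of these neighbours lay within their SDs of each other, but Jon65Aiv lay above yip7 in every library.

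Members of one protease family differed in how much they varied. Jon25Bi had 105, 101, 71, 257 and 241 CPM and Jon65Ai had 15.7, 10.1, 15.8, 38 and 43.6 CPM, so replicates 4 and 5 stood above replicates 1 to 3 without overlap. Jon74E was lowest in the same replicates, at 302, 352, 294, 254 and 253 CPM. The trypsins alphaTry (6.91%) and kappaTry (7.01%) varied less. The amylase copies Amy-p and Amy-d had 717 ± 151 CPM and 891 ± 179 CPM. These copies are nearly identical in sequence, as are several trypsin and lysozyme genes, so the split of counts between copies is uncertain, and gammaTry was listed at 0 in every library. The Malpighian tubule, the renal organ of the fly, held 0.119, 0.119, 0.124, 0.127 and 0.115% of the counts through 13 genes, and the mean of 0.121% was 0.0666% without 4 members whose exons overlap another gene. Its alkaline phosphatase Alp4 had 279 ± 17.4 CPM and the urate oxidase Uro 71.1, 62.3, 75.4, 102 and 81.6 CPM, highest in replicate 4.

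Oenocytes, cells under the abdominal cuticle that make surface hydrocarbons, took 2.87, 2.77, 3.01, 3.62 and 3.81% of the counts through 7 genes. Cyp4g1, the P450 that carries out the last step of hydrocarbon synthesis, made up 94.3% of this share. The fatty acid synthase FASN2 had 1020.5, 1197, 1297, 1378 and 1488 CPM and the ketoacyl reductase spidey 376, 365, 378, 434 and 461 CPM, and both were highest in replicates 4 and 5. The elongase bond, in contrast, had 148, 145, 145, 147 and 148 CPM and no spread beyond counting error. The female hydrocarbon enzymes eloF (0.757 ± 0.133 CPM) and Fad2 (0.023 ± 0.0253 CPM) were low, and the mean of Fad2 was under the floor. Desat1, which serves both oenocytes and fat body, had 3356, 3312, 3519, 3509 and 3753 CPM.

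The fat body list, 20 genes with Desat1 counted here, took 0.901, 0.888, 0.954, 1.01 and 1.05% of the counts. This list had a mean share of 0.961%, and of 0.642% without 7 members whose exons overlap another gene. Besides Desat1, its leading members among those matched by symbol were apolpp, the main lipoprotein of the hemolymph, with 2292, 2145, 2275, 2833 and 2796 CPM, and the iron carrier Tsf1 with 1747, 1851, 2049, 1979 and 2308 CPM. The fatty acid synthase FASN1 was listed but not matched to a row by symbol, so neither the share nor this order counts it. Lipid droplet genes were lower per kb, with Lsd-1 at 151 ± 12.9 CPM per kb and Lsd-2 at 80.8 ± 11.8 CPM per kb. The larval storage proteins were at low levels in these adults, Lsp2 at 29.97 ± 5.68 CPM, Lsp1beta at 35.6 ± 5.64 CPM and Lsp1alpha at 1.69 ± 0.752 CPM, and the larval genes Fbp1 and Fbp2 had 0.107 ± 0.0304 CPM and 0.3 ± 0.0615 CPM. Ilp6, an insulin-like peptide of the fat body, had 34.1, 29.98, 32.6, 15.2 and 19.7 CPM and was lower in replicates 4 and 5 than in replicates 1 to 3. Hemocyte genes, 16 in the table, took 0.13, 0.131, 0.12, 0.116 and 0.125%, led by the extracellular matrix genes Ppn (345 ± 18.3 CPM), Col4a1 (219 ± 40.3 CPM) and vkg (153 ± 25.4 CPM), which the fat body also makes, while the hemocyte receptor NimC1 had 28 ± 2.35 CPM and the clotting protein gene Hml 99.3 ± 9.06 CPM.

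Lists of the male reproductive tract had median biological CVs of 5.13% for late spermatogenesis, 5.24% for the accessory gland, 6.39% for the early germline, 8.70% for fertility genes of the Y and 9.87% for the ejaculatory duct and bulb, none below the 4.82% of all genes. Late spermatogenesis genes took 1.09, 1.04, 1.14, 1.13 and 1.17% of the counts through 36 genes, of which 33 had at least 10 CPM. The leucyl aminopeptidase S-Lap1, a structural protein of the sperm mitochondrion, had 1467, 1401, 1550.5, 1551 and 1615 CPM, loopin-1 had 1215, 1161, 1275, 1296 and 1337 CPM and S-Lap7 had 1068, 1006, 1143, 1126 and 1179 CPM. The testis tubulin betaTub85D had 669 ± 29.7 CPM, and the protamine genes ProtA and ProtB, which package sperm DNA, had 59.1 ± 2.54 CPM and 83.3 ± 3.59 CPM. Per kb, S-Lap1 with 715 ± 39.3 CPM per kb and loopin-1 with 586 ± 32.3 CPM per kb led. Genes of the early germline and spermatocytes were far lower, with 0.0572, 0.0572, 0.0598, 0.0579 and 0.0554%, and bol, a translational regulator of meiosis, made up 70.4% of that share with 399, 400.4, 419.6, 412 and 395 CPM. The differentiation factor bam of the early germ cells had 1.14 ± 0.167 CPM.

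The accessory gland, which makes most seminal fluid proteins, held 0.965, 0.912, 0.962, 0.912 and 0.932% of the counts through 41 genes. Replicates 4 and 5 were the lowest pair for 15 of its 37 members with at least 10 CPM, against 20.9% of the 8665 genes. They were the highest pair for 3, against 31.8%. Acp36DE, a sperm storage protein, had 1601, 1536, 1545, 1532 and 1702 CPM. Sfp87B had 1460.1, 1386, 1483, 1447 and 1413 CPM and Sfp60F 1102, 1033, 997, 1099 and 1083 CPM. SP, the sex peptide that changes female behaviour after mating, had 167, 164, 160.4, 152 and 154 CPM. Of the 37 members with at least 10 CPM, Acp54A1 spread most, at 542, 435, 641, 453 and 350.5 CPM, with its highest value in replicate 3. The ejaculatory duct and bulb added 0.808, 0.767, 0.823, 0.87 and 0.885% through 7 genes, led by Ebp, EbpII (1375 ± 48.8 CPM) and the esterase Est-6 (1203 ± 119 CPM). Replicate 2 was the lowest library for Ebp, Est-6, Anp and Dup99B, and replicates 4 and 5 were the highest pair for 5 of the 7 genes, against 31.8% of the 8665 genes.

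Genes of the ovary and of yolk were mostly low, and the labels give the flies as male. Of the 19 genes, 5 had a mean of at least 1 CPM. Together they took 0.00424, 0.0043, 0.00441, 0.0046 and 0.00481% of the counts, and the mean was 0.00157% without members whose exons overlap another gene, against 0.00447% with them. A mean under 10 CPM was found for 17. The yolk protein genes Yp1 and Yp2 had 0.0804, 0.124, 0.285, 0.677 and 0.641 CPM and 0.301, 0.425, 0.513, 1.14 and 0.995 CPM. Replicates 4 and 5 were the highest pair for both, at no more than 1.14 CPM. Yp3 had 9.5, 10.00, 9.78, 11 and 10.9 CPM. The oocyte gene grk had 27.2, 26.1, 27.3, 27.3 and 29.6 CPM, and its exons overlap those of Akap200. The chorion genes Cp36 and Cp38 had means under the floor.

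RNAs of components of the dosage compensation complex, which raises transcription of the single X of males, were detected in every library. The noncoding RNA roX1 (lncRNA:roX1) had 539.8, 564, 567, 562 and 576 CPM, a biological CV of 2.33%, with exons that overlap those of ec, and the partner RNA roX2 (lncRNA:roX2) had 9.38, 8.52, 9.93, 7.73 and 7.54 CPM. Per kb, roX1 had 103 ± 2.47 CPM per kb and roX2 6.3 ± 0.756 CPM per kb. The helicase mle had 54 ± 0.509 CPM and the male-limited subunit msl-2 31.2 ± 1.18 CPM. The median level of protein-coding genes of at least 1 CPM was 10.0 CPM per kb on the X (1782 genes), 13.4 CPM per kb on the arms of chromosomes 2 and 3 (9434 genes) and 17.4 CPM per kb on chromosome 4 (78 genes). Within single libraries the median of the X was 0.730 to 0.753 of that of the arms. The X took 13.5 to 14.7% of the counts, highest in replicates 4 and 5, and Cyp4g1 lies on it. Genes of the Y took 0.0123 to 0.0143%, and the sperm dynein genes kl-5 and kl-3 of the Y had 25.4 ± 3.51 CPM and 18.4 ± 2.18 CPM.

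The 30 photoreceptor genes took 0.845, 0.846, 0.828, 0.847 and 0.834% of the counts, and the CV of 1.00% over the libraries was the lowest of the summed shares of the 19 tissue lists. Single members varied more, with a median biological CV of 5.92%, against 4.82% over all genes, and their orders were opposite. ninaE had 2935, 2993, 2945, 3349.8 and 3267 CPM, higher in replicates 4 and 5, while the myosin ninaC had 529.7, 521, 506, 433 and 421 CPM and the channel trp 335, 348, 321, 285 and 278 CPM, both lower there. Of the 28 members with at least 10 CPM, 18 had replicates 4 and 5 as the lowest pair, against 20.9% of the 8665 genes. The arrestins Arr1 and Arr2, which shut off rhodopsin, had 745, 721, 744, 780.4 and 771 CPM and 943, 937, 932, 908 and 952 CPM. Rhodopsins of the inner photoreceptors varied least, with Rh4 at 94.5, 92.9, 94, 92.6 and 92.7 CPM and Rh3 at 80.2, 77.2, 77.1, 78.4 and 78.5 CPM. retinin, a protein of the corneal lens surface, was the most variable gene of the list at 227, 209.6, 183, 123 and 112 CPM. The white gene w had 54.1, 53.8, 49.8, 62.7 and 53.3 CPM, highest in replicate 4. Driver lines of this kind carry a white marker gene, and the counts do not separate its transcript from that of w[1118].

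Neuronal genes took 0.262, 0.267, 0.256, 0.231 and 0.228% of the counts through 20 genes, each with at least 10 CPM. Replicates 4 and 5 were the lowest pair for 15 of them, against 20.9% of the 8665 genes. The synaptic proteins cpx and Syt1 had 550.4, 548, 517, 465 and 439 CPM and 309, 310.3, 308, 263 and 263 CPM, and elav, the RNA-binding protein that marks neurons, had 45.8, 46.6, 45.3, 41.8 and 40.1 CPM. Glial genes took 0.166% ± 0.0108 of the counts, of which the glutamine synthetase Gs2 gave 777 ± 66.3 CPM, and the glial factor repo had 16.8, 18.1, 17.6, 17.9 and 17.5 CPM. Of 25 neuropeptide genes, 13 had at least 10 CPM and a median biological CV of 2.98%, below the 4.82% of all genes. Among them Akh, the adipokinetic hormone, had 13.3, 13.3, 12.9, 13.7 and 14.3 CPM and Pdf, the peptide of clock neurons, 10.9, 11.9, 12.1, 11.1 and 11.3 CPM. Nplp3 was the exception at 138, 127, 94.6, 82.2 and 68.2 CPM.

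Odorant-binding and receptor genes took 0.174, 0.168, 0.162, 0.176 and 0.179% of the counts, a mean of 0.172%, which was 0.0795% without members whose exons overlap another gene. Members of this list did not share one order. The olfactory coreceptor Orco had 10.1, 10.7, 5.79, 6.93 and 5.22 CPM, and the antennal binding proteins Obp83a and Os-C had 31.8, 32.5, 16.8, 21.3 and 13.6 CPM and 28, 26.7, 17.9, 19.3 and 13.3 CPM. Replicates 1 and 2 were the highest pair for these genes, replicate 5 was the lowest, and replicate 4 lay above replicate 3. Obp99c and Obp44a, which took most of the counts of the list, had 492, 469, 464, 507 and 531 CPM and 436, 418, 383, 376 and 406 CPM, so that Obp44a also had its highest values in replicates 1 and 2. Obp56d, another binding protein gene, ran the other way at 207, 202, 246, 255 and 279.8 CPM. The order of the libraries for Orco thus differed from that of the muscle genes, where replicate 3 lay above replicate 4.

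**Figure D2:**
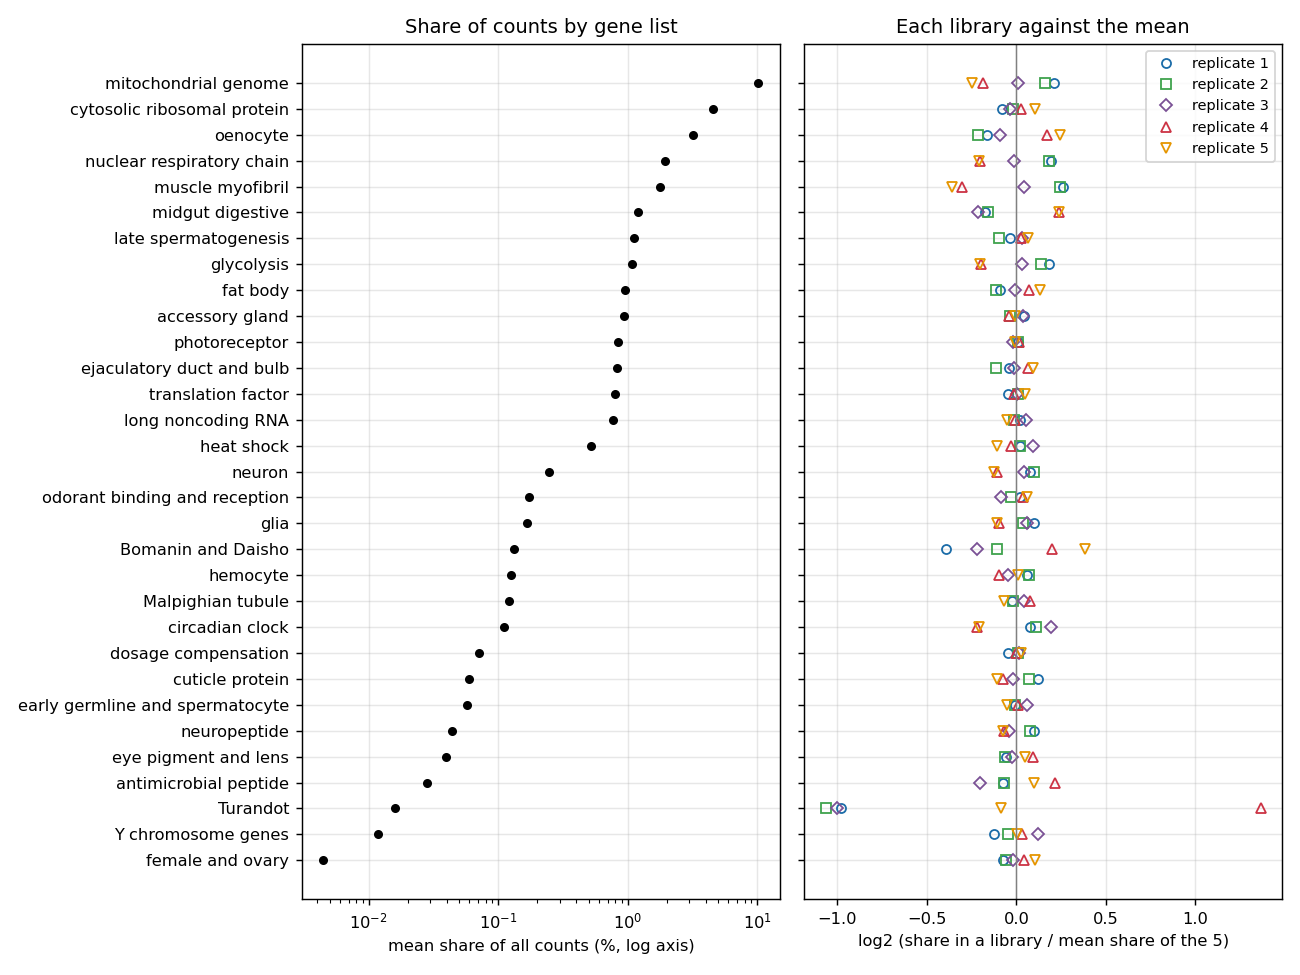
Mean share of all counts of each gene list on a log axis (left) and the log2 ratio of the share in each of the 5 control libraries to that mean (right), with lists ordered by share. Replicates 4 and 5 lie left of the mean for mitochondrial, respiratory chain, glycolysis, muscle and clock genes and right of it for oenocyte, midgut and Bomanin genes, and replicate 4 stands alone for the Turandot genes.

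Cytosolic ribosomal proteins took 4.28, 4.47, 4.42, 4.62 and 4.88% of the counts in replicates 1 to 5, the highest share of the nuclear lists. The order turns without members whose exons overlap another gene, where the ribosomal list held 3.01% and the oenocyte list 3.20%. Of 83 members with at least 10 CPM, 67 had replicates 4 and 5 as the highest pair, against 31.8% of the 8665 genes. The biological CV of the median member was 4.93%. RpL5, RpL3 and RpL7A had 1308 ± 37.2 CPM, 1118 ± 39.4 CPM and 1073 ± 71.3 CPM. Some paralogs were low, such as RpS5b with 13.8 ± 0.816 CPM and RpS10a with 6.35 ± 0.198 CPM. Translation factors took 0.768, 0.796, 0.793, 0.785 and 0.819%, and eEF2, the poly(A)-binding protein pAbp (1391, 1456, 1464, 1523 and 1529 CPM) and the helicase eIF4A (1246, 1291, 1248, 1292 and 1332 CPM) led those matched by symbol. Of 11 factors listed, 9 were matched. The elongation factor eEF1alpha1 and eIF5A were not, so neither the share nor this order counts them.

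Heat shock and chaperone genes took 0.529, 0.529, 0.556, 0.51 and 0.484% of the counts. The constitutive chaperone Hsc70-4 had 2245, 2260.2, 2407, 2227 and 2148 CPM, and Hsp83, the fly Hsp90, had 1577, 1553, 1639, 1261 and 1221 CPM, lower in replicates 4 and 5. The Hsp40 cochaperone DnaJ-1 followed the same order, at 157, 150.1, 159, 109 and 106 CPM. The inducible Hsp70 copies stayed low, with Hsp70Bb at 0.763, 0.567, 0.76, 1.41 and 0.641 CPM and Hsp70Aa at 0.121, 0.0885, 0.152, 0.0797 and 0.177 CPM, and the split among these near-identical copies is uncertain. Hsp68, a related inducible gene, had 56.7, 55.1, 54.9, 57.6 and 52.6 CPM.

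Immune effectors were unequal among the libraries. Bomanin and Daisho genes, short peptides secreted by the fat body downstream of Toll, took 0.101, 0.123, 0.114, 0.152 and 0.173% of the counts. Replicates 4 and 5 were the highest pair for 10 of the 13 members with at least 10 CPM, against 31.8% of the 8665 genes. Dso1 had 186, 210.1, 188, 276 and 365 CPM, BomS1 had 33.3, 51.9, 43.3, 112 and 136 CPM and BomBc1 had 8.1, 16.6, 11.3, 43.9 and 71 CPM. BomS6 was lower in the same libraries, at 156, 162, 169, 139 and 137 CPM, and BomBc2 had 143, 173, 162, 160.3 and 175 CPM. Per kb, BomS6 with 769.8 ± 70.9 CPM per kb was the highest of the list, followed by BomS2 with 478 ± 139 CPM per kb.

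Antimicrobial peptide genes took 0.0269, 0.027, 0.0246, 0.0329 and 0.0303% of the counts, and 3 of the 19 matched by symbol made up 77.6% of that share. These were Drsl4 with 101, 98.9, 89.5, 81.8 and 75.2 CPM and Drsl5 with 96.8, 92.5, 86, 76.8 and 70.3 CPM, paralogs of drosomycin, and the cecropin gene CecA1 with 42, 43, 46.6, 48.6 and 50.5 CPM. The attacin AttC had 9.6, 13.4, 8.56, 47.7 and 34.8 CPM, and replicates 4 and 5 lay above replicates 1 to 3. Several other peptides showed this at lower levels. Mtk, metchnikowin, had 1.87, 2.43, 1.52, 11.8 and 22.3 CPM, Dro, drosocin, had 0.562, 0.939, 0.285, 2.69 and 6.21 CPM, and AttA had 0.462, 0.992, 0.361, 11.9 and 4.36 CPM. CecA1 was among the less variable, with a biological CV of 7.49%. Drosomycin itself, Drs, was listed but not matched to a row by symbol, so neither the share nor the order of members counts it.

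Turandot genes, secreted stress peptides of the fat body, were the most variable list of all. They took 0.00805, 0.00758, 0.00791, 0.0408 and 0.0149% of the counts, so that replicate 4 held more than any other library. TotA (chromosome 3R, 20871036 to 20871700 of BDGP6) had 63.2, 53.4, 59.8, 269 and 113 CPM, TotC had 6.87, 11.2, 7.96, 87.9 and 19.7 CPM, TotX had 7.07, 7.3, 8.28, 29.9 and 10.5 CPM and TotM had 2.93, 3.19, 2.77, 21 and 4.8 CPM. In all 4 genes replicate 4 was the highest and replicate 5 the next. TotE and TotZ had means under the floor. Without replicate 4 the mean share was 0.00962%, against 0.0159% with all libraries, and its CV was 36.8%, against 90.1%. The mean of TotA was 72.4 CPM without replicate 4, against 111.7 CPM, that of TotC 11.4 CPM, against 26.7 CPM, and that of TotX 8.28 CPM, against 12.6 CPM.

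Of the 8 circadian clock genes, 5 had replicates 4 and 5 as the lowest pair and 1 had them as the highest, against 20.9% and 31.8% of the 8665 genes. The repressors tim and per, whose RNA cycles over the day, had 236, 248, 279.6, 108 and 110.4 CPM and 27.6, 26.6, 28.2, 19.5 and 19.1 CPM, and replicates 4 and 5 lay below replicates 1 to 3. The activators Clk and cyc had 70.9, 68.9, 75.4, 67.7 and 70.1 CPM and 31, 31.8, 33.8, 33.2 and 33.6 CPM, with biological CVs of 3.84% and 2.74%. Among the other members, the feedback gene Pdp1 had 380.4, 395, 391, 310.0 and 305 CPM, vri 134, 148, 152, 126 and 125 CPM, cwo 106, 93.1, 113, 79.4 and 78.7 CPM and the light-sensitive cryptochrome cry 176, 175, 184, 199 and 212 CPM. The gene cry was the only one of the 8 with replicates 4 and 5 as the highest pair. Cipc, whose mammalian namesake inhibits CLOCK and which was noticed after its values were seen, had 49.4, 41.3, 56.1, 17.4 and 17 CPM. The hour of collection is not given in the labels, and its part in these values was not tested.

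**Figure D3:**
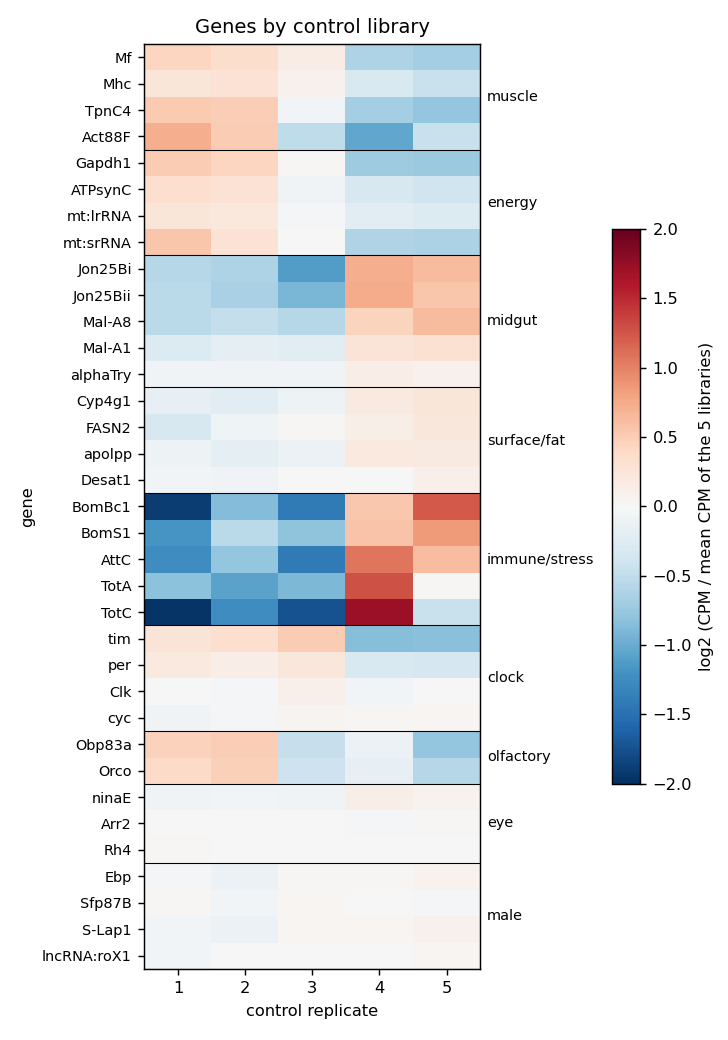
Log2 ratio of the CPM in each control library (columns, replicates 1 to 5) to the mean of the 5 libraries, for genes of the groups named at the right (rows). Muscle, energy and tim rows are red in replicates 1 and 2 and blue in replicates 4 and 5, midgut and immune rows the reverse except for a blue replicate 5 of TotC, olfactory rows are blue in replicates 3 and 5, and the eye and male rows are near white.

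Across all 8665 genes of at least 10 CPM, the biological CV had a 10th percentile of 1.11%, a 90th percentile of 12.5% and a 99th percentile of 32.0%. It was below 10% for 7319 genes (84.5%) and at least 30% for 109 (1.26%). In 678 genes the spread did not exceed counting error. In replicates 1 to 3 alone, an alternative chosen because these libraries had been seen to lie close together, the median was 3.09% and 15 genes reached 30%. The spread was larger at high levels, with a median of 4.46% from 10 to under 30 CPM (3341 genes), 5.25% from 100 to under 300 CPM (1435 genes) and 9.64% from 1000 CPM (87 genes). For comparison, counting error alone gave a CV of 3.37% at 10 to under 30 CPM and 0.371% from 1000 CPM, so depth limits the estimate only for the lower genes. Below 10 CPM the counting part was larger than the median biological CV, 5.73% and 5.36% from 3 to under 10 CPM.

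**Figure D4:**
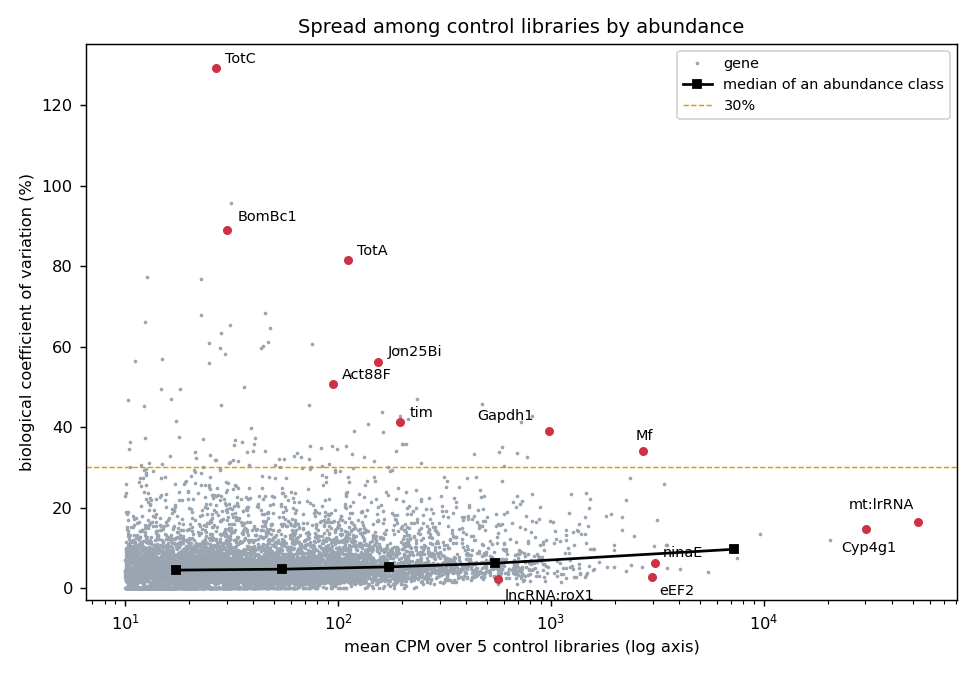
Biological coefficient of variation (vertical, %) against the mean CPM over the 5 control libraries (horizontal, log axis), a point per gene of at least 10 CPM, with the median of each abundance class in black and named genes in red. TotC stands at 129%, TotA at 81.5%, Mf at 34.1% and eEF2 at 2.70%, and the class medians climb to 9.64%.

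Of the 109 genes with a spread of at least 30%, replicates 4 and 5 were the highest pair in 74 and the lowest pair in 29, against 31.8% and 20.9% of all 8665 genes. By number, the lists with the most members there were midgut (8 of 34 with at least 10 CPM), Bomanin and Daisho (6 of 13), muscle (5 of 25), Turandot (3 of 3) and mitochondrial genes (3 of 14). Over all genes the share was 1.26%. On no list were 75 of the 109 genes. The 12 genes with the largest spread were led by TotC (129%), which had 50.6% without replicate 4. After it came FBgn0085799, which had 10.00, 7.67, 81.6, 22.3 and 35.9 CPM and stood highest in replicate 3. Its mean was 31.5 CPM, and 19.0 CPM without replicate 3. The next were BomBc1, TotA, TotX and AttC. Without replicate 4 the spread was 38.1% for TotA and 18.1% for TotX, against 81.5% and 77.2% in all libraries, and without replicate 5 the mean of BomBc1 was 19.97 CPM, against 30.2 CPM. CG8329, CG9676 and CG3088 had a common order, with the highest value in replicate 2 and the lowest in replicate 5, for example 43, 85.3, 66.2, 19.5 and 11.9 CPM for CG8329. phu had 6.67, 6.14, 6.32, 20.7 and 21.9 CPM and LManIII, a lysosomal mannosidase, had 29.3, 22, 27.3, 69.8 and 92.1 CPM, both highest in replicates 4 and 5, and CG7203 had 52.2, 40.3, 24.6, 11.8 and 11.8 CPM.

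Some genes outside the lists, singled out after their values were seen, were both abundant and variable. The mitochondrial phosphate carrier Mpcp1 had 702, 656, 507, 254 and 245 CPM and the calcium-binding protein gene Scp1 1242, 1052, 869, 513 and 419 CPM, which is the order of the muscle genes. The opposite order was seen in LManV, a lysosomal mannosidase, with 116, 108, 116, 259 and 363 CPM, in the glycine methyltransferase Gnmt with 159, 143, 159.9, 359 and 351 CPM and in smp-30 with 113, 123, 97.2, 219.8 and 254 CPM. The metallothionein genes MtnD and MtnE, which bind metals, had 13.8, 7.67, 11.5, 25.6 and 23.3 CPM and 13.2, 4.85, 9, 23.7 and 23.3 CPM. Fst, a gene known for its response to cold recovery, had 24.4, 30.7, 25, 86.7 and 55.4 CPM, highest in replicate 4.

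At the other end, 14 of the 1981 genes of at least 100 CPM showed no spread beyond counting error. The 10 with the smallest raw spread among them were alphaSnap, a factor of membrane fusion, with 102, 101, 103, 103 and 102 CPM, Fit1, an integrin adaptor, with 164, 163, 163, 164 and 161 CPM, the kinase subunit Pka-C3 with 134, 132, 135, 133 and 135 CPM, the proton pump accessory gene ATP6AP2 with 227, 229.9, 227, 228 and 231 CPM, then CG44774, bond, FBgn0025117, Vap33, mod and alc. Of these, bond alone is a member of a tissue list. All were at 0 after counting error was taken off, so their order among themselves carries no weight.

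By class, protein-coding genes took 89.5 to 91.2% of the counts and ribosomal RNA genes 4.37 to 6.25%, nearly all of it mt:lrRNA. Long noncoding and antisense RNAs, 2262 in the table, took 0.784, 0.768, 0.804, 0.77 and 0.748%, and 62 of them had at least 10 CPM. Without the 729 that overlap another gene the mean share was 0.415%, against 0.775% with them. lncRNA:CR42862 was 25.4% of that share with 1991, 2046, 2088, 1886 and 1849 CPM, but its exons overlap those of CG33229. Cuticle protein genes, most of which serve larval and pupal cuticles, were mostly low. Of 126, 29 had a mean of at least 1 CPM, and Cpr65Au (134 ± 12.9 CPM), Cpr49Ae (103 ± 13.7 CPM) and Cpr49Ab (71.4 ± 4.28 CPM) led. Taken as a union, the 19 tissue lists held 502 genes and 11.8, 11.5, 11.7, 12.3 and 12.5% of the counts.

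A few genes that are known to be active in these organs were listed at or near 0, and their exons are shared with other genes. Adh, the alcohol dehydrogenase of the fat body, had 6.95, 7.45, 6.82, 8.4 and 8.98 CPM, and 93.9% of its exon bases lie in exons of Adhr on the same strand, which itself had no count. The rhodopsin chaperone ninaA and the seminal peptide gene Acp95EF had no count in any library, and all their exon bases lie in exons of CG15824 and Spase22-23 on the opposite strand. The flight muscle gene fln had 3.94, 3.59, 2.92, 1.59 and 1.41 CPM, with 61.6% of its exon bases shared with an antisense RNA, and the eye pigment gene cn had 0.101 ± 0.0511 CPM, with 68.7% shared. Over the genome, zeros were frequent where nearly all exon bases were shared. Of 87 protein-coding genes with 95% or more of their exon bases shared on the opposite strand only, 70 (80.5%) had no count in any library. Of 238 such genes on the same strand only, 206 (86.6%) had none, and of 9168 genes with no shared base 183 (2.00%) had none. At 50 to under 95% shared, as in fln and cn, the share at 0 was 5.29% on the opposite strand only and 4.48% on the same strand only, and below that it was 0.157% and 4.82%. A 0 for a gene wholly shared with another was therefore not read as a lack of its RNA. The kit named in the labels marks strand, the strand setting of the counting is not given in the sources used here, and at 95% or more shared both kinds of overlap went with zeros. Among the 8665 genes of at least 10 CPM, 2745 (31.7%) share exon bases with another gene, and their levels are uncertain to that extent.

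**Figure D5:**
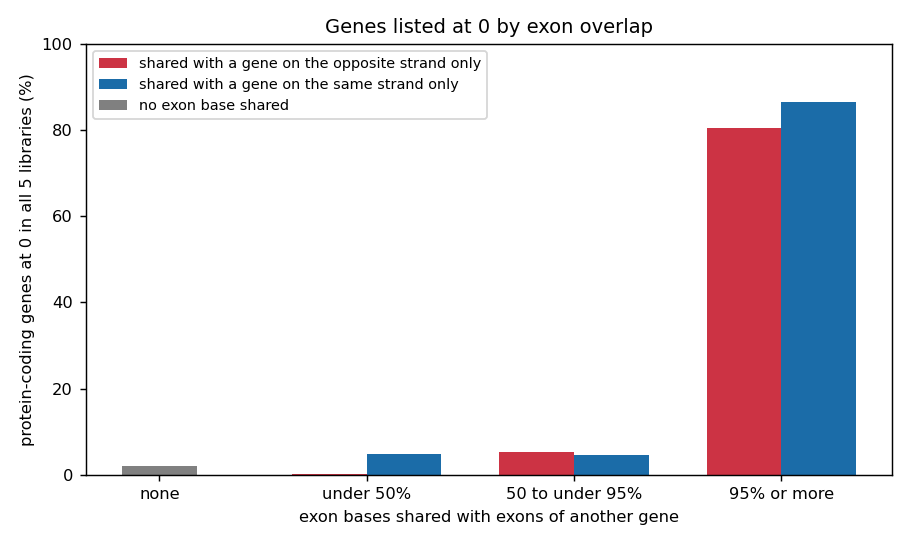
Percent of protein-coding genes with no count in any of the 5 control libraries (vertical) by how much of their exons is shared with exons of other genes (horizontal), on the opposite strand only (red), on the same strand only (blue) or not at all (grey). The bars reach 80.5% and 86.6% where 95% or more of the bases are shared, against 2.00% where none is.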

How the data were processed

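Poly(A) RNA of 5 control samples, each of 5 whole males, was sequenced on an Illumina NextSeq 500 from a strand-preserving mRNA kit with 14 PCR cycles and no spike-ins, per the labels' protocols. The authors deposited a table of raw read counts per gene, made with bcl2fastq, STAR 2.4.0j and featureCounts on BDGP6, with limma also named, per the submitters' processing notes. For the annotation release, the strand setting and the handling of multi-mapping reads, details were not given in the sources used here. No label says that the libraries came from separate rearings, so their spread may be technical in part.

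From the counts, CPM was computed from column totals (45231822 to 56472658 counts) with Python 3.11.15, numpy 2.4.6 and pandas 2.3.3. Symbols, coordinates and exon lengths came from Ensembl annotation release 115 of BDGP6, which paired 17253 of 17559 identifiers. The biological CV is the square root of the squared CV of CPM minus the mean of 1/count, set to 0 where negative, for genes with a mean of at least 10 CPM. It has no test attached, and edgeR 4.0.16 and DESeq2 1.42.0 in R 4.3.3 served only as other scalings and as another measure of spread.

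Genes were named by rule. The rule took the 15 highest in mean CPM, the 10 highest per kb, the 12 with the largest spread and the 10 with the smallest spread at 100 CPM or more. It added the 3 members of highest CPM of each of 31 gene lists, and roX1, roX2, w, Mef2 and the yolk protein genes Yp1, Yp2 and Yp3 in any case, 123 genes in all. Any further list member or gene was picked for naming with its values in view. The lists and the rule were written with earlier results of these data known. Of 3089 list entries, 3077 were matched to a row by symbol, and among those not matched were FASN1, wupA, vas, para, VAChT, PPO1 and Drs. Such genes may stand among the 306 identifiers without a symbol. Their absence was therefore not read as a lack of counts. They are not analysed here, and the shares of their lists leave them out. S-Lap, Jon, trypsin, Hsp70 and other near-identical copies may share reads.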

Additional observations from a re-analysis of the deposited data

Results flagged for a closer look

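Of 154 values compared across the 5 libraries (the share of each list and the CPM of each named gene), 5 (3.25%) had a highest or lowest library whose gap to the next one was more than 0.71 of the whole range. Chance would give about 1 in 20 (5%) for independent values of a normal distribution. Some of the 154 were picked for their large or small spread in these data, and list shares contain named genes. The 3.25% can therefore not be judged against that rate. Each of the 5 stood out at the high end. Of these, 4 concerned the Turandot stress peptides in replicate 4. Their share of the counts was 0.0408% there, against 0.0149% in the next library. TotC had 87.9 CPM in replicate 4, TotA had 269 CPM and TotX had 29.9 CPM, and the next library had 19.7, 113 and 10.5 CPM for these genes. These 4 values are not independent, since the genes make up the share. The fifth was RpL3, a ribosomal protein gene, with 1186 CPM in replicate 5 and 1115 CPM in the next library. Other immune genes, such as AttC and most Bomanin and Daisho genes of at least 10 CPM, were also higher in replicates 4 and 5. The Bomanin and Daisho share was highest in replicate 5, at 0.173%, against 0.152% in replicate 4. The values of these genes are given above, and any link to the flagged values was not tested.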

How the results depend on the processing

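No paired analysis was possible because only the control libraries were used and no groups were compared. The promoter motif counts that had been planned, with their alternatives, were not run, since no promoter sequences were used here. Without genes whose exons overlap those of another gene, 340 genes held 50% of the counts and the top 10 held 18.2%, and the late spermatogenesis and cytosolic ribosomal protein shares were 1.01% and 3.01%. The shares that moved by over 1.5 times under this setting were, besides cytosolic ribosomal proteins, those of the nuclear respiratory chain (0.886%, against 1.95%), glycolysis (0.464%, against 1.07%), long noncoding (0.415%, against 0.775%), odorant-binding (0.0795%, against 0.172%), Malpighian tubule (0.0666%, against 0.121%), clock (0.0691%, against 0.110%), dosage compensation (0.00988%, against 0.0707%) and ovary and yolk genes (0.00157%, against 0.00447%). Without mitochondrial and ribosomal RNA genes in the total, the top 10 held 6.91%, and the shares were 1.24% for late spermatogenesis, 1.04% for accessory gland and 5.05% for cytosolic ribosomal protein genes. Without the top member of each list, the shares were 0.961% for late spermatogenesis, 0.778% for accessory gland, 0.183% for oenocyte and 4.94% for mitochondrial genome genes. The median biological CV was 4.57% with TMM scaling, 4.56% with DESeq2 scaling, 4.98% at a mean of at least 1 CPM, 5.57% at 100 CPM and 6.87% from edgeR's dispersion, and 4.51 to 4.84% with a library left out. The genes at or above 30% numbered 227 at a mean of at least 1 CPM, 33 at 100 CPM and 47 from edgeR's dispersion, which draws genes towards a common value, and 81 to 126 with a library left out. Under alternatives chosen after the data were seen, the median was 4.53% without mitochondrial and ribosomal RNA genes and 3.09% in replicates 1 to 3 alone, where 15 genes reached 30%. The counts of detected genes stayed within 1.5 times of those reported. The mean CPM of all 123 named genes moved by less than 1 SD under both scalings, and 73 of 117 moved by more without mitochondrial and ribosomal RNA genes in the total. With a library left out, the mean of 5 named genes moved by over 1.5 times, to 11.4 CPM for TotC, 72.4 CPM for TotA and 8.28 CPM for TotX without replicate 4, 19.0 CPM for FBgn0085799 without replicate 3 and 19.97 CPM for BomBc1 without replicate 5, and the Turandot share was 0.00962% without replicate 4.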
